A study of Mus musculus with 12 samples.

Results

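The genes examined were those of the potassium, voltage-gated sodium and hyperpolarization-activated (HCN) channels, in lenses of wild-type mice and of 3 Trpm3 genotypes. Members were the protein-coding genes whose symbol had the form of a potassium channel (Kcn, a letter code and a number), sodium channel (Scn, a number and a or b) or HCN channel (Hcn and a number) gene. They numbered 110 of 55487 gene identifiers in the table, 21936 of them protein-coding: 40 pore-forming voltage-gated potassium channel genes, 15 inward rectifiers, 14 two-pore channels, 8 calcium- or sodium-activated channels, 15 auxiliary potassium channel subunits, 10 pore-forming and 4 auxiliary sodium channel subunits and 4 HCN channels.

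Lens RNA was sequenced at postnatal day 7 (P7) in 12 libraries, 3 of each genotype, and each library held RNA of 4 male and 4 female lenses. The genotypes were wild-type (WT) mice, Trpm3-knockout (Trpm3-KO) mice, heterozygous Trpm3-I/M mice and homozygous Trpm3-M/M mice. The I/M and M/M lines carried a knock-in made by CRISPR/Cas-9 editing that replaces an isoleucine with a methionine of TRPM3, a cation channel of the lens epithelium, and is linked to inherited cataract. Trpm3-KO mice were made by homologous recombination, with a LacZ-neo cassette that interrupts Trpm3 but leaves part of its transcript, and the experimental lines were kept on a C57BL/6J background. As a check of the labels, Trpm3 itself stood at 251 to 285 CPM (counts scaled to the depth and make-up of each library) in WT and 89.9 to 99.7 CPM in KO lenses, and higher, at 370 to 413 CPM, in I/M and at 469 to 484 CPM in M/M lenses. All 3 KO libraries lay below, and the 6 knock-in libraries above, the WT libraries, and Trpm3 reads were still detected in KO lenses. The lenses are whole organs, so fewer cells of a type and less RNA per cell cannot be told apart in any value below, and nothing in the sources used here says how the lenses of one library were divided among animals.

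Potassium channels set the resting voltage of lens cells, and in the lens they are best known from the epithelium, where potassium conductance works with the sodium pump to drive the circulating current that stands in for a blood supply. A potassium channel pore is lined by a short selectivity filter in which backbone oxygens replace the water around a potassium ion. Voltage-gated sodium channels are large single proteins accompanied by small beta subunits, and they carry the action potentials of nerve and muscle. HCN channels resemble potassium channels but admit sodium as well, and are known for pacemaking.

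The selectivity filter is the sequence that unites the potassium channels among the members, and it is shown here for the genes on which the results turn. The coding sequences of the GENCODE M21 annotation (GRCm38) were translated and searched for a serine, threonine or cysteine followed by any residue, glycine, tyrosine or phenylalanine, and glycine. All 81 pore-forming potassium and HCN members held this pattern, 11 of the 14 two-pore genes held it more than once, and none of the 15 auxiliary potassium, 10 pore-forming sodium or 4 auxiliary sodium members did. Among the other protein-coding genes 545 of 21452 (2.54%) held it, so a match is a description and not proof of a pore. The stretches below are 57 bases long, read 5′ to 3′ on the coding strand, and capitals mark the glycine, tyrosine or phenylalanine, and glycine codons. Kcnh2 was among the members with the highest levels per length in WT lenses, Kcnk3, Kcna5, Kcng1 and Kcnj2 were called higher in both knock-in genotypes, and Kcnh3 was called lower in both.
Kcnh2: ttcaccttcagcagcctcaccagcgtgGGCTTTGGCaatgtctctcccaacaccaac
Kcnk3, stretch 1: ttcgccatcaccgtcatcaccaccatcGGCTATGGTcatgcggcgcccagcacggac
Kcnk3, stretch 2: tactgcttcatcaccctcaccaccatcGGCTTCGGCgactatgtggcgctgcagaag
Kcna5: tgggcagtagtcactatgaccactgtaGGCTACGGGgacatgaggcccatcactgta
Kcng1: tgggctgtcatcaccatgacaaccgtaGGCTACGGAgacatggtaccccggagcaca
Kcnj2: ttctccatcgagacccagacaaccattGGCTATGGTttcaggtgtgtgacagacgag
Kcnh3: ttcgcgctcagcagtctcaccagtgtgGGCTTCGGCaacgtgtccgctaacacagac
On GRCm38 the coding stretch of Kcnh2 lies at chr5:24325534-24325590 (minus strand, exon 7). That of Kcnk3, stretch 1 lies at chr5:30588572-30621919 (plus strand, exons 1 and 2, with an intron between). That of Kcnk3, stretch 2 lies at chr5:30622181-30622237 (plus strand, exon 2). That of Kcna5 lies at chr6:126533724-126533780 (minus strand, exon 1). That of Kcng1 lies at chr2:168262620-168262676 (minus strand, exon 3). That of Kcnj2 lies at chr11:111072186-111072242 (plus strand, exon 2). That of Kcnh3 lies at chr15:99232908-99232964 (plus strand, exon 8). In the 2 stretches of Kcnk3 the residue between the glycines is tyrosine in the first and phenylalanine in the second, and it is phenylalanine in Kcnh2 and Kcnh3 and tyrosine in the other 3 genes shown.

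Library totals were 56162169 to 57480971 in WT, 56945022 to 60992835 in KO, 68589045 to 82090198 in I/M and 65454127 to 73875040 in M/M. The share taken by 16 crystallin genes fell from 61.0 to 63.9% in WT to 49.4 to 51.3% in M/M, and scaling by totals alone moved the median of all genes by 0.50 on the log2 scale in M/M, so changes below are relative to most other genes. I/M replicate 3 had an Xist level of 0.0721 CPM, against 45.8 to 305 in the other 11 libraries, which does not match a pool of both sexes. The other libraries were uneven too. WT replicate 2 had the 45.8 CPM of Xist and a Y-linked gene sum of 50.6 CPM, against 31.9 and 32.8 in WT replicates 1 and 3. Without I/M replicate 3 the member counts called were the same as with it, 5 higher at 5 CPM and 10 higher and 4 lower at 1 CPM in I/M.

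Most channel genes were scarcely measurable in the P7 lens. Of the 110 members, 16 reached the minimum of 5 CPM in at least 3 libraries that the study applied, 19 more reached 1 CPM in at least 3 libraries, 71 had counts but passed neither minimum, with no library above 1.09 CPM, and 4 (Kcna10, Kcnj1, Kcnk18 and Kcnv1) had no count in any library. These minimums were applied to CPM on unscaled library totals, so a gene that passed can stand just under them on the scaled CPM printed here. The summed level of all members was 328 to 335 CPM in WT and 328 to 335 in KO lenses, against 362 to 374 in I/M and 354 to 385 in M/M lenses. Of the 16 members above 5 CPM, 7 did so in all 3 WT libraries and 8 in none of them. Of the 19 above only 1 CPM, 7 did so in all 3 WT libraries and 9 in none. A gene that entered a test only through the group in which it was high had to differ, so the counts of called members below are descriptions of the genes tested and not of the 110.

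In WT lenses the members with the highest level per length were 2 inward rectifiers and 3 voltage-gated channels. Kcnj12, which encodes the strong inward rectifier Kir2.2, stood at 26.1 ± 1.34 CPM per kb of exon. It was followed by Kcnh2, the ERG channel, at 10.97 ± 0.494, by Kcnj11, the pore of the ATP-sensitive potassium channel, at 9.998 ± 0.773, by Kcnd3, an A-type channel, at 4.88 ± 0.126 and by Kcnh1, the EAG channel, at 3.97 ± 0.427 CPM per kb (mean ± SD, n = 3). These SDs leave Kcnj12 above all others, while Kcnh2 and Kcnj11, which are neighbours in the order, differed by less than the sum of their SDs. Kcnk1, Kcnma1 and Kcna3 were among the next in order, between 0.965 and 1.46 CPM per kb. In Trpm3-M/M lenses Kcnj12 still led at 26.95 ± 2.62 CPM per kb. Kcnk3, at 6.24 ± 0.909 against 0.396 ± 0.0499 CPM per kb, moved from place 19 to place 4, and Kcna5, at 4.304 ± 0.478 against 0.616 ± 0.0722, from place 16 to place 7.

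**Figure D1:**
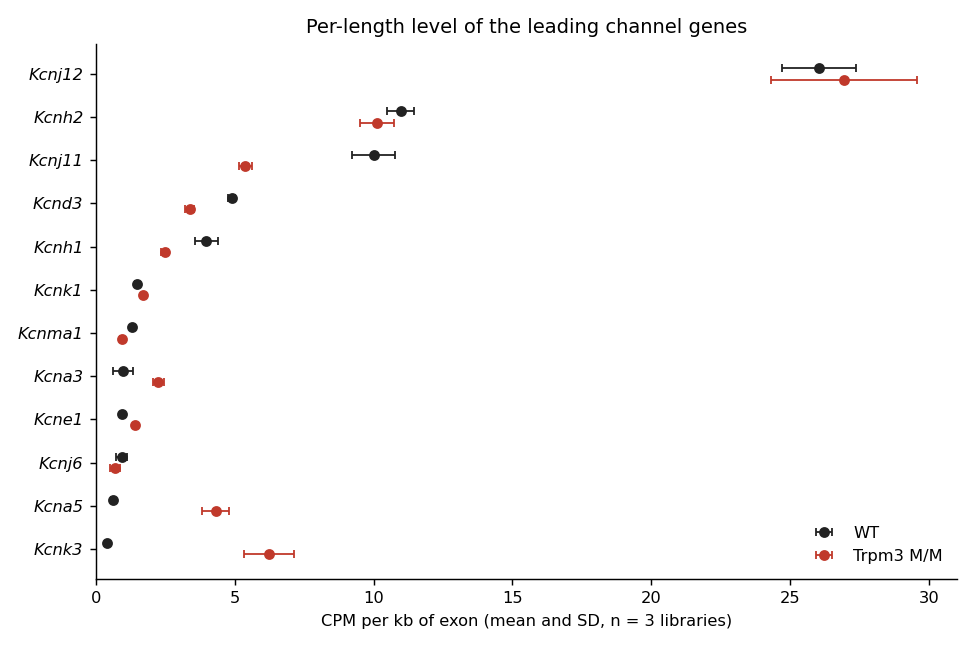
Level per length of members among the 12 highest in WT or in Trpm3-M/M lenses, ordered by WT level; the horizontal axis is CPM per kb of exon, points are means and bars SDs of 3 libraries. Kcnj12 leads in both genotypes, and Kcnk3 and Kcna5, near 0 in WT, stand at 6.24 and 4.304 CPM per kb in Trpm3-M/M lenses.

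A member was called where its fold change was at least 2 and its adjusted p at most 0.05 (edgeR quasi-likelihood test, Benjamini-Hochberg over all genes tested). In Trpm3-M/M against WT lenses 6 of the 16 members tested at 5 CPM were called higher and none lower, where 6.42% and 2.53% of all 8984 genes were. With the lower minimum of 1 CPM 14 of 35 were called higher and 2 lower, where the shares of all 12638 genes were 9.69% and 3.24%. In Trpm3-I/M against WT lenses 5 of 16 were called higher and none lower (2.58% and 0.746% of all genes), and with the lower minimum 10 of 35 higher and 4 lower (4% and 1.25%), or 14 and 2 under scaling by library totals. By the adjusted p alone, 8 of the 16 were higher and 5 lower in M/M, where 31.4% of all genes were higher and 31.4% lower, and 7 were higher and 5 lower in I/M, where 17.3% and 15.3% were. The share that was lower by this looser rule was thus near that of all genes in M/M. DESeq2 called the same numbers by the fold rule in both comparisons. The median log2 fold change of the members was 0.31 at 5 CPM and 0.57 at 1 CPM in M/M, and 0.046 and 0.32 in I/M, with medians over all genes between -0.012 and -0.00095 in these fits.

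**Figure D2:**
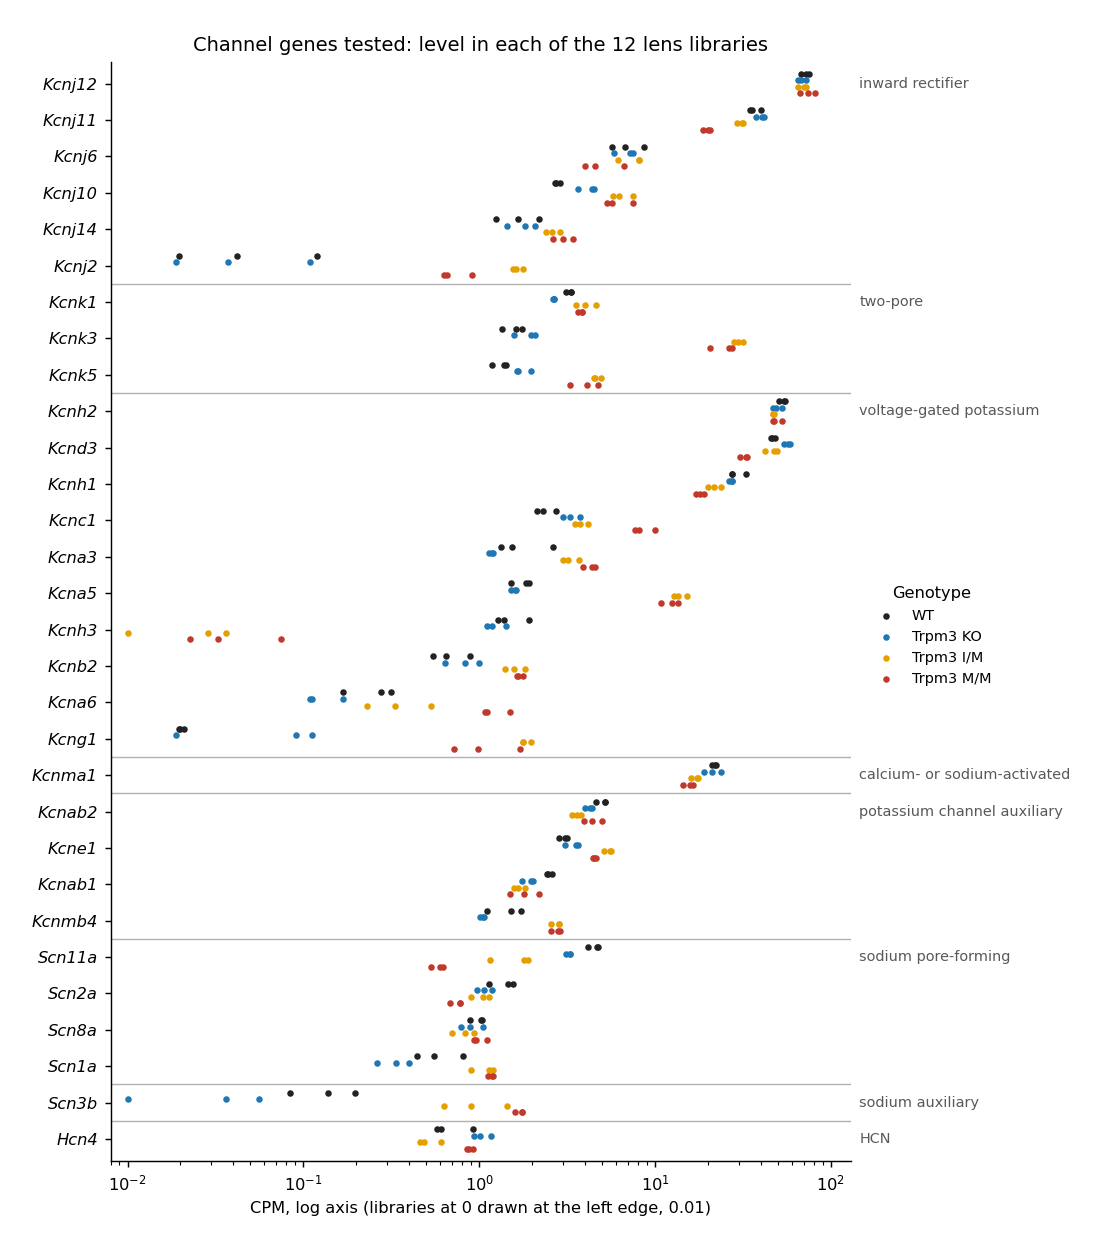
Level of 30 tested members in each of the 12 libraries, grouped by channel family; the horizontal axis is CPM on a log scale, each point is 1 library and colours are genotypes. Kcnj12 overlaps between all genotypes at the top of the range, while Kcnk3, Kcna5, Kcng1 and Kcnj2 in the knock-in libraries stand apart from WT and KO.

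The two-pore channels, which pass a background current that holds cells near the potassium equilibrium voltage, gave the largest rise by summed level among the potassium channel families in I/M lenses. Their summed level was 6.31 to 7.06 CPM in WT and 6.48 to 7.29 in KO lenses, against 36.6 to 40.5 in I/M and 28.1 to 36.5 in M/M lenses. Most of this sum in the knock-in lenses was Kcnk3 (TASK-1, an acid-sensitive background channel), at 1.36, 1.74 and 1.63 CPM in WT libraries, 1.98, 1.57 and 2.07 in KO, 29.5, 31.6 and 28.2 in I/M and 27.4, 26.3 and 20.7 in M/M. Every knock-in library stood above every WT and KO library, which was likely in advance, since Kcnk3 met the 5 CPM minimum through knock-in lenses alone. The rise was 18.9-fold (log2 fold change 4.24, SE 0.13, adjusted p = 1.28e-10) in I/M and 15.7-fold (log2 fold change 3.98, SE 0.13, adjusted p = 4.37e-11) in M/M. Between the knock-in genotypes Kcnk3 was lower in M/M, with all 3 libraries below those of I/M (log2 fold change -0.27, adjusted p = 0.0319), a direction that turned to 0.042 (adjusted p = 0.677) when libraries were scaled by their totals alone. Kcnk5 (TASK-2, an alkaline-activated relative) was read from the lower minimum at 1.38, 1.18 and 1.43 CPM in WT, 4.95, 4.53 and 4.48 in I/M and 4.75, 4.09 and 3.31 in M/M. It was 3.49-fold (log2 fold change 1.80, SE 0.14, adjusted p = 6.16e-07) higher in I/M and 2.99-fold (log2 fold change 1.58, SE 0.15, adjusted p = 4.65e-07) higher in M/M. Kcnk1 (TWIK-1), the two-pore gene with the highest WT level, stood at 3.13, 3.32 and 3.31 CPM in WT, 4.61, 4.02 and 3.58 in I/M and 3.83, 3.85 and 3.67 in M/M, and was 1.25-fold (log2 fold change 0.32, SE 0.097, adjusted p = 0.0232) higher in I/M and not called by the fold rule. The other 11 two-pore genes passed neither minimum.

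Among the voltage-gated potassium channels Kcna5, Kcnb2 and Kcng1 were called higher in both knock-in genotypes, and Kcnh3, of the ether-à-go-go group, was called lower in both. Kcna5 (Kv1.5, a delayed rectifier of the Shaker family) stood at 1.85, 1.91 and 1.53 CPM in WT, 1.51, 1.63 and 1.597 in KO, 13.5, 15.2 and 12.7 in I/M and 10.9, 12.5 and 13.6 in M/M. The knock-in libraries did not overlap WT, which was likely in advance, since Kcna5 met the 5 CPM minimum through knock-in lenses alone. The change was 7.84-fold (log2 fold change 2.97, SE 0.11, adjusted p = 8.56e-10) in I/M and 6.996-fold (log2 fold change 2.81, SE 0.11, adjusted p = 2.51e-10) in M/M. The I/M and M/M libraries of Kcna5 overlapped, with a difference of -0.17 on the log2 scale (SE 0.088, adjusted p = 0.136). Kcnc1 (Kv3.1, a fast delayed rectifier) stood at 2.12, 2.31 and 2.74 CPM in WT, 4.14, 3.51 and 3.73 in I/M and 10.04, 7.66 and 8.15 in M/M, and was 3.598-fold (log2 fold change 1.85, SE 0.13, adjusted p = 6.34e-08) higher in M/M, while its 1.59-fold rise in I/M (adjusted p = 0.00266) was below 2-fold. Per kb of exon, its KO libraries stood at 0.346, 0.398 and 0.316 CPM, above WT at 0.225, 0.244 and 0.289. They overlapped I/M, at 0.438, 0.371 and 0.395 CPM per kb.

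Kcng1 encodes a subunit that forms no channel alone and alters the Kv2 channels, to which Kcnb2 belongs, and both genes were called higher. Kcng1 had 1 count in each WT library, and stood at 0.112, 0.0904 and 0.0188 CPM in KO, 1.77, 1.98 and 1.77 in I/M and 1.71, 0.716 and 0.982 in M/M. Against a floor of 3 counts per WT library it was at least 30.4-fold higher in I/M and at least 18.8-fold higher in M/M (adjusted p = 1.04e-06 and 1.37e-06). The 3 M/M libraries were spread more than the I/M libraries, and lay below them (log2 fold change -0.72, adjusted p = 0.03195). Kcnb2 (Kv2.2) stood at 0.649, 0.546 and 0.892 CPM in WT, 1.402, 1.57 and 1.82 in I/M and 1.78, 1.66 and 1.64 in M/M, a rise of 2.28-fold (log2 fold change 1.19, SE 0.20, adjusted p = 4.91e-04) in I/M and 2.38-fold (log2 fold change 1.25, SE 0.20, adjusted p = 8.42e-05) in M/M. Kcna3 (Kv1.3), at 1.34, 1.53 and 2.64 CPM in WT and 4.401, 4.53 and 3.87 in M/M, was 2.28-fold (log2 fold change 1.19, SE 0.19, adjusted p = 7.69e-05) higher in M/M, and Kcna6, a further Shaker-family gene, was 4.71-fold (log2 fold change 2.24, SE 0.30, adjusted p = 2.25e-05) higher. The 39.6% of the exon bases of Kcna6 that it shares with the antisense gene Gm26673 limit this value, since the library kit does not mark strand.

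Kcnh3 (Kv12.2, an ELK-type channel) was nearly lost from the knock-in lenses. It stood at 1.28, 1.39 and 1.92 CPM in WT and 1.18, 1.103 and 1.43 in KO, where the libraries overlapped. In I/M it had at most 3 counts in a library and in M/M at most 6, which is 0, 0.0365 and 0.0288 and 0.07502, 0.0325 and 0.0226 CPM. WT was at least 38.2-fold above the floor of 3 counts per I/M library (adjusted p = 1.70e-07), and in M/M the fitted log2 fold change was -5.14 (SE 0.37, adjusted p = 3.92e-08). Kcnh1 (EAG) stood at 27.3, 27.3 and 32.7 CPM in WT, 23.6, 21.6 and 19.9 in I/M and 18.1, 18.98 and 17.1 in M/M, a log2 fold change of -0.42 (adjusted p = 8.55e-04) in I/M and -0.69 (adjusted p = 3.72e-06) in M/M. The third relative, Kcnh2 (ERG), at 54.9, 54.1 and 50.4 CPM in WT and 47.6, 52.5 and 46.96 in M/M, overlapped between these genotypes (log2 fold change -0.12, adjusted p = 0.0854). In I/M it was lower by the adjusted p alone (-0.17, adjusted p = 0.0363), a direction that turned to 0.033 under scaling by library totals. Kcnd3 (Kv4.3) was at 46.4, 45.8 and 48.1 CPM in WT and 42.3, 49.4 and 47.6 in I/M, which overlapped, and at 32.97, 30.5 and 33.3 in M/M, where it was lower (-0.54 on the log2 scale, adjusted p = 3.97e-06). This fall is near the 0.50 by which scaling by library totals alone moved the median of all genes in M/M. The falls of Kcnd3 and Kcnh1 in M/M are thus relative to most other genes, and their size depends on the scaling.

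**Figure D3:**
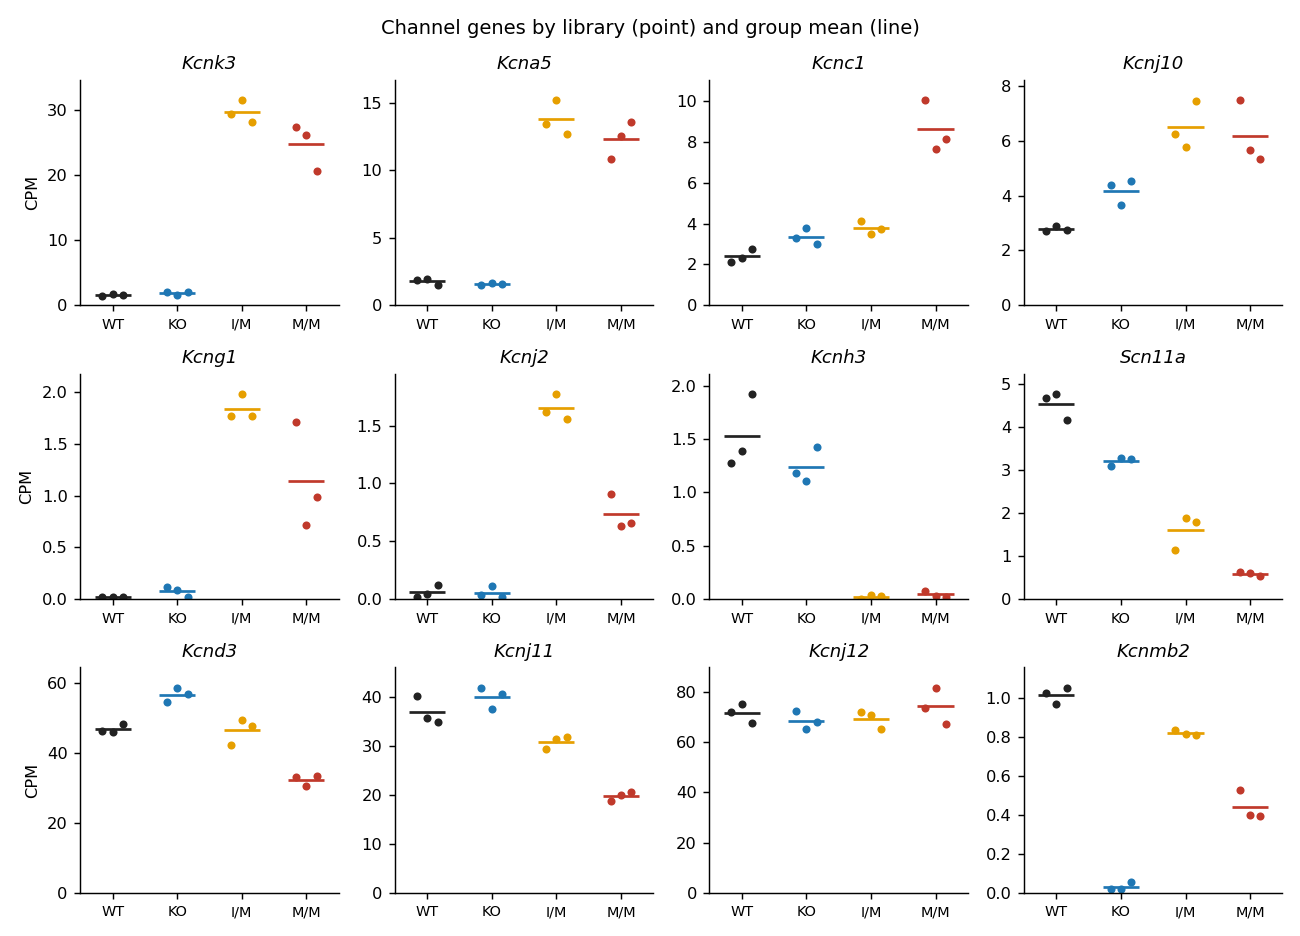
Level of 12 members by genotype in separate panels; the vertical axis of each is CPM from 0, points are libraries and lines group means of 3. Kcnk3 and Kcna5 are high in both knock-in genotypes, Kcng1 and Kcnj2 are highest in I/M, Kcnc1 is highest in M/M, Kcnh3 and Scn11a fall, Kcnj12 overlaps in every genotype, and Kcnmb2 is near 0 in KO alone.

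The inward rectifiers, which pass potassium more easily into than out of the cell, overlapped as a summed family, with 115 to 123 CPM summed in WT and 102 to 116 in M/M lenses. Within it the members differed. Kcnj12 stood at 72.1, 75.1 and 67.7 CPM in WT, 72.5, 65.1 and 68.02 in KO, 71.8, 70.7 and 65.3 in I/M and 73.7, 81.5 and 67.1 in M/M, with overlap among all 4 genotypes and a log2 fold change in M/M of 0.049 (SE 0.071, adjusted p = 0.565). Kcnj11 (Kir6.2) stood at 40.01, 35.5 and 34.7 CPM in WT, 29.3, 31.3 and 31.8 in I/M and 18.8, 20.02 and 20.5 in M/M, with no overlap, and had log2 fold changes of -0.26 (adjusted p = 0.00676) and -0.89 (adjusted p = 4.95e-08). Abcc8, the sulfonylurea receptor that surrounds the Kir6.2 pore, stood at 46.96 to 54.97 CPM in WT and 50.2 to 54.7 in M/M, a log2 fold change of 0.080 (adjusted p = 0.275).

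Kcnj2 (Kir2.1), the close relative of Kcnj12, had 1 to 6 counts in a WT library and stood at 1.62, 1.77 and 1.56 CPM in I/M and 0.913, 0.629 and 0.655 in M/M. Its fitted log2 fold change was 4.73 (SE 0.39, adjusted p = 7.28e-07) in I/M and 3.53 (SE 0.42, adjusted p = 6.70e-06) in M/M. Kcnj10 (Kir4.1, the glial potassium-buffering channel) stood at 2.71, 2.899 and 2.74 CPM in WT, 4.37, 3.67 and 4.53 in KO, 6.27, 5.77 and 7.45 in I/M and 7.49, 5.68 and 5.35 in M/M. All 9 libraries with a Trpm3 allele changed lay above WT, which for I/M and M/M was likely in advance, since Kcnj10 met the 5 CPM minimum through them alone. The rise was 2.33-fold (log2 fold change 1.22, SE 0.14, adjusted p = 2.67e-05) in I/M and 2.22-fold (log2 fold change 1.15, SE 0.14, adjusted p = 1.25e-05) in M/M. Kcnj14 (Kir2.4) was 1.75-fold (log2 fold change 0.81, SE 0.18, adjusted p = 0.00171) higher in M/M, below the fold rule. Kcnj6 (GIRK2, opened by G proteins) overlapped between WT (6.78, 5.69 and 8.68 CPM) and M/M (6.64, 4.001 and 4.55 CPM), and its log2 fold change of -0.49 (adjusted p = 0.0445) became 0.016 under scaling by library totals.

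Kcnma1, the pore of the BK channel opened by voltage and calcium, was the only calcium- or sodium-activated member above either minimum. It stood at 22.4, 21.1 and 21.9 CPM in WT, 16.1, 17.6 and 17.3 in I/M and 15.8, 14.5 and 16.5 in M/M, and had log2 fold changes of -0.36 (adjusted p = 0.00219) and -0.49 (adjusted p = 6.17e-05), the second of which turned to 0.022 under scaling by library totals. Of the auxiliary potassium channel subunits above either minimum none was called in those fits. Kcne1, the partner of Kcnq1 in the slow cardiac potassium current, was 1.78-fold (log2 fold change 0.84, SE 0.088, adjusted p = 8.88e-06) higher in I/M and 1.49-fold (log2 fold change 0.58, SE 0.088, adjusted p = 6.84e-05) higher in M/M. Kcnab1 and Kcnab2, cytoplasmic beta subunits of Shaker channels, had log2 fold changes of -0.57 and -0.48 in I/M (adjusted p = 0.00715 and 0.002399) and of -0.48 and -0.18 in M/M (adjusted p = 0.00825 and 0.1247). The M/M value of Kcnab1 turned to 0.058 under scaling by library totals. Kcnmb4, a BK beta subunit, was 1.898-fold (log2 fold change 0.92, SE 0.14, adjusted p = 2.21e-04) higher in I/M and 1.88-fold (log2 fold change 0.91, SE 0.14, adjusted p = 7.00e-05) higher in M/M, with 31.5% of its exon bases shared with antisense genes.

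Scn3b (beta 3, a small subunit that modulates the sodium channel pore) stood at 0.197, 0.08404 and 0.139 CPM in WT, 0.903, 1.43 and 0.634 in I/M and 1.6, 1.76 and 1.75 in M/M, a rise of 6.995-fold (log2 fold change 2.81, SE 0.39, adjusted p = 1.09e-04) in I/M and 11.8-fold (log2 fold change 3.55, SE 0.37, adjusted p = 1.79e-06) in M/M. The 10 pore-forming genes summed to 7.86 to 8.34 CPM in WT, 5.70 to 6.37 in KO, 4.41 to 5.54 in I/M and 5.29 to 5.801 in M/M. The KO sums thus also lay below WT, and they overlapped those of M/M.

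The pore-forming sodium channel genes moved in different directions, each at a low level. Scn11a (Nav1.9, a persistent channel of pain-sensing neurons) was the leading sodium pore gene of WT lenses and fell in steps, at 4.68, 4.77 and 4.16 CPM in WT, 3.103, 3.27 and 3.27 in KO, 1.15, 1.88 and 1.802 in I/M and 0.625, 0.596 and 0.5304 in M/M. Its log2 fold change was -1.49 (SE 0.15, adjusted p = 5.41e-06) in I/M and -2.98 (SE 0.17, adjusted p = 4.14e-09) in M/M. Of the neuronal pore genes, Scn1a was 1.91-fold (log2 fold change 0.93, SE 0.21, adjusted p = 0.00174) higher in M/M, Scn2a had a log2 fold change of -0.92 (adjusted p = 2.70e-04) and Scn8a one of -0.00026 (adjusted p = 0.999). Hcn4, the one HCN gene above 1 CPM in at least 3 libraries, stood at 0.924, 0.609 and 0.575 CPM in WT, 0.485, 0.462 and 0.605 in I/M and 0.875, 0.857 and 0.925 in M/M, which overlapped between M/M and WT (adjusted p = 0.192).

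**Figure D4:**
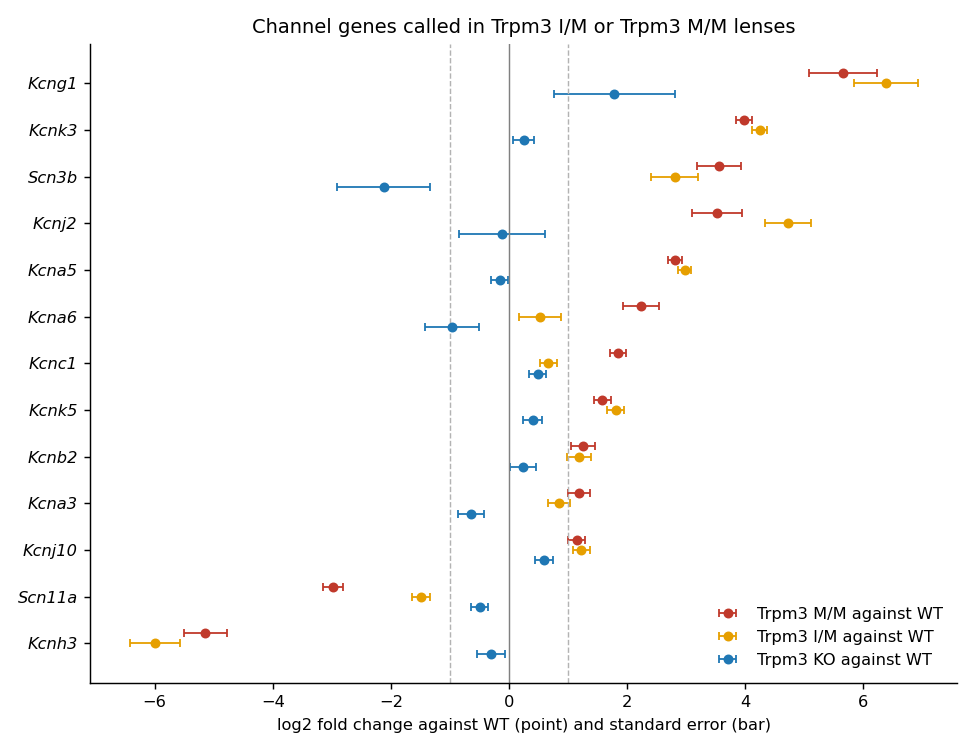
Log2 fold change against WT of 13 members called in at least 1 comparison with WT; points are edgeR estimates for M/M, I/M and KO, bars standard errors, and dashed lines the 2-fold limits. Kcnk3 and Kcna5 rise in both knock-in genotypes, Kcnh3 and Scn11a fall in both, and none of those drawn is called in KO; estimates for Kcng1, Kcnj2, Scn3b and Kcnh3 rest on few counts in the lower group.

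The direct comparison of M/M with I/M asked which members differed between lenses with 2 mutant alleles and with 1. Marker sums of other cell types, given below, also differed between these lenses. Allele number and tissue make-up therefore cannot be told apart here. At 5 CPM 2 of 16 members were called higher and none lower (3.67% and 1.02% of all genes), by the adjusted p alone 5 were higher and 6 lower (25.6% and 25.7%), and at 1 CPM 5 of 35 were called higher and 2 lower (6.5% and 1.49%), or 8 and 1 under scaling by library totals. Kcnc1 was 2.27-fold (log2 fold change 1.18, SE 0.12, adjusted p = 4.59e-06) higher in M/M than in I/M, and Kcna6 was called higher by 1.71 on the log2 scale (adjusted p = 1.24e-04). Scn11a and Kcnj2 were called lower, with log2 fold changes of -1.48 and -1.20 (adjusted p = 1.24e-05 and 7.58e-04). Each of these 4 had no overlap between its I/M and M/M libraries, which adds no support, since they were picked as called in this comparison. Kcna6 and Kcnc1 met their CPM minimums through M/M lenses alone, and Kcnj2 mainly through I/M lenses. Under scaling by library totals Kcnj2 fell short of 2-fold, at -0.87.

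In Trpm3-KO lenses none of the 16 members was called higher or lower, where 0.234% and 0.334% of all genes were, nor was any of the 35 (0.364% and 0.451%). DESeq2 also called none at either minimum. At an unadjusted p under 0.05 in edgeR, 4 of the 16 were higher and 1 lower, and 6 of the 35 higher and 9 lower. By the adjusted p alone 2 of the 16 were higher and none lower (2.16% and 2.2%), which were Kcnd3, at 54.5, 58.6 and 56.9 CPM against 46.4, 45.8 and 48.1 in WT, and Kcnj10. The change was 1.21-fold (log2 fold change 0.28, SE 0.059, adjusted p = 0.0165) for Kcnd3 and 1.51-fold (log2 fold change 0.59, SE 0.15, adjusted p = 0.0458) for Kcnj10. One large change lay under both minimums and was singled out after its values were seen. Kcnmb2, a beta subunit that inactivates BK channels, had 52, 46 and 53 counts in the WT libraries and 1, 1 and 3 in the KO libraries, with 62, 67 and 56 in I/M and 42, 37 and 35 in M/M. It stood at 1.02, 0.966 and 1.05 CPM in WT, so WT was at least 18.2-fold above the floor of 3 counts per KO library, while I/M stood at 0.807 to 0.836 and M/M at 0.395 to 0.525 CPM. Every KO library lay below every library of the other 3 genotypes. In a fit with no minimum the log2 fold change in KO was -4.96 (SE 0.44). For Kcna5 and Kcna6 in M/M this fit gave far smaller adjusted p than the fits above, at like fold changes and SEs. No adjusted p is therefore given for Kcnmb2. In the fit with no minimum 2 of 106 members with a count were called lower in KO and none higher (0.595% and 0.468% of 32253 genes), the other being Scn3b with at most 3 counts in a KO library. Kcnmb2 is on chromosome 3 (GRCm38, 31902507 to 32200180). The KO mice were a line made separately from the others, so the Trpm3 allele and any other genetic difference of that line cannot be told apart in this value. The same limit holds for the knock-in line in every comparison of I/M or M/M with WT.

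Of the other members under both minimums 4 are given as bounds, chosen after their values were seen for their counts in the knock-in lenses. Kcne2, a small auxiliary subunit, had at most 1 count in a WT library and 66, 65 and 41 counts in I/M and 49, 51 and 33 in M/M, at least 12.5-fold and 8.48-fold higher against the floor of 3 counts per WT library. Kcnj8 (Kir6.1, the vascular relative of Kcnj11) had 1 count in each WT library and 39, 30 and 40 in M/M, at least 6.97-fold higher. Kcne4 and Scn7a had no count in WT, and 18 to 28 and 21 to 24 counts in M/M, at least 4.497-fold and 4.19-fold higher.

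Proteins that act with these channels and the pump that supplies their gradients were examined for comparison. Of 33 partner genes measured, 13 were tested at 5 CPM, and 1 was called in M/M and in I/M and none in KO. It was Fgf12, which encodes a factor that binds the tail of sodium channel pores, at 1.79 to 2.44 CPM in WT, 4.53 to 5.58 in I/M and 19.5 to 22.3 in M/M, a log2 fold change of 1.32 (adjusted p = 2.46e-06) and 3.37 (adjusted p = 3.83e-11). Of the sodium pump genes 5 of 12 were tested and 2 were called higher in both knock-in genotypes, among them Atp1b1, a beta subunit. It stood at 10.97 to 12.96 CPM in WT, 53.2 to 68.9 in I/M and 77.7 to 94.3 in M/M (log2 fold change 2.35 and 2.83, adjusted p = 2.82e-09 and 9.34e-11). The median over the tested partners was 0.080 in M/M and over the tested pump genes 0.79.

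Several values beside the channel genes differed between genotypes, and their part in the channel results was not tested. The summed level of 10 vascular endothelium markers was 14.8 to 17.1 CPM in WT and 14.4 to 15.4 in KO. It was 24.8 to 32.3 CPM in I/M and 65.4 to 81.3 in M/M, and none of the 10 was at 0 in all libraries. Of 7 tested markers 6 were called higher in M/M and 5 in I/M, where 6.42% and 2.58% of all genes were. Pecam1, Cdh5, Tie1, Flt1 and Vwf met the 5 CPM minimum through M/M lenses alone, so they had to be higher there. The summed level of 10 pericyte and fibroblast markers was 159 to 168 CPM in WT and 126 to 135 in KO. It was 163 to 195 CPM in I/M and 311 to 449 in M/M. Most of the WT sum was Pdgfra and Acta2, at means of 79.4 and 68.3 CPM. In M/M 5 of 7 tested were called higher and 1, Pdgfra, lower, where 6.42% and 2.53% of all genes were. Rgs5, Cspg4 and Col1a1 met the minimum through knock-in lenses alone. Macrophage markers, none of them above the 5 CPM minimum, summed to 0.436 to 0.629 CPM in WT, 1.02 to 1.07 in I/M and 9.05 to 17.1 in M/M. Photoreceptor markers summed to 2.16 to 2.74 CPM in WT and 3.004 to 6.41 in M/M, and other retinal markers to 40.4 to 44.1 and 64.1 to 66.3. Most of the latter sum was Tfap2a, at means of 25.0 CPM in WT and 25.3 in M/M, and Glul, at 7.29 and 21.3. Nerve markers summed to 26.2 to 27.1 CPM in WT and 32.7 to 32.9 in M/M, most of it Gfap, at means of 20.9 and 18.3 CPM. These sums therefore do not measure retinal or nerve content. Among the members, Kcnc1 was higher in M/M than in I/M, and Kcnj2 and Kcng1 were lower. Whether these or other member differences go with any of the marker sums was not tested. Markers of pigmented cells summed to 3.19 to 3.91 CPM in WT, 5.49 to 6.42 in I/M and 3.14 to 3.77 in M/M, and Rpe65 was at 0 in all libraries. Markers of the ciliary non-pigmented epithelium summed to 174 to 177 CPM in WT and 173 to 181 in KO. They summed to 168 to 179 CPM in I/M and 217 to 265 in M/M, most of it Cp. Of the 3 of 6 that were tested, Slc4a4 was called lower in M/M. Cp was higher there by the adjusted p alone (log2 fold change 0.587, adjusted p = 3.85e-06), and Aqp4 passed neither rule (-0.191, adjusted p = 0.0861). The untested Zic1, Zic2 and Opcml were also higher in M/M. They stood at or above 0.734, 0.135 and 1.81 CPM in M/M, against at most 0.042, 0.042 and 0.357 in WT. Red blood cell markers summed to 1.22 to 12.04 CPM in WT and 12.4 to 15.01 in M/M, with 1 of 7 tested and not called. Lens fiber and epithelium markers, all 15 of them tested, summed to 251075 to 280402 CPM in WT, 243757 to 264762 in KO, 206421 to 224352 in I/M and 173659 to 182706 in M/M. In M/M 13 of these 15 were lower by the adjusted p alone and 2 by the fold rule, with a median log2 fold change of -0.70. Under scaling by library totals 8 were lower and 3 higher by the adjusted p, with a median of -0.23.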

How the data were processed

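Poly-A RNA of P7 lenses was sequenced in 12 libraries of 4 genotypes. The authors aligned the reads to mm10 with DRAGEN and deposited estimated counts per gene, unnormalized and not all whole (88.4% of values were whole), with Ensembl annotation. These were rounded, 168 identifiers listed more than once were counted once, and a second deposited table of 9500 genes held the same counts. Its CPM values and 12 columns of the authors' own comparisons (fold changes and p-values) were not used.

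Genes with at least 5 CPM in at least 3 libraries entered the main edgeR 4.0.16 quasi-likelihood fit (R 4.3.3, TMM scaling, all 12 libraries, one factor for genotype). The study's methods name edgeR and this minimum, while the quasi-likelihood test, TMM and the single fit were chosen here. Members reaching only 1 CPM were read from a second such fit. CPM in the text is computed on TMM-scaled totals, and CPM per kb divides it by the union of exons in GENCODE M21. P-values were adjusted by Benjamini-Hochberg over all genes tested and calls needed a 2-fold change and an adjusted p of at most 0.05. The fit was tested on simulated data first. The 3 comparisons with WT share the WT libraries and are given side by side only. P-values of the fits with a minimum measure the spread between libraries, which may be partly technical. Those of the fit with no minimum were far smaller for Kcna5 and Kcna6 at like SEs, and are not given. Floors of 3 counts cover counting error only.

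The members, gene lists and tests were chosen with earlier results of these data known. Genes named were all members passing the main minimum, those called at 1 CPM, the 10 highest per length in WT, and called partner and pump genes. Some genes that these rules name are not reported here, but they stay in the fits and in all counts and sums. Kcnmb2, Kcne2, Kcnj8, Kcne4, Scn7a and Abcc8, Scn1a, Scn2a, Scn8a, Hcn4, Kcnj14, Kcnab1 and Kcnmb4 were added after values were seen. Replicate numbers did not pair samples, since same-numbered libraries of different genotypes deviated together (correlation over 0.1) in only 2 of 18 pairs. Alternatives were scaling by library totals, TMM without crystallins, DESeq2 1.42.0, no fold threshold, other minimums, only the compared genotypes, a replicate block and each library left out.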

Additional observations from a re-analysis of the deposited data

Results flagged for a closer look

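Members were singled out where their change differed between the knock-in genotypes, tested directly as M/M against I/M (edgeR, adjusted over all genes tested), and 4 of those that met this rule are given. Kcna6 was higher in M/M by 1.71 on the log2 scale (SE 0.26) and Kcnc1 by 1.18 (SE 0.12). Kcnj2 and Scn11a were lower in M/M, with log2 fold changes of -1.20 (SE 0.23) and -1.48 (SE 0.18). Adjusted p ranged from 4.59e-06 for Kcnc1 to 7.58e-04 for Kcnj2. In each the 3 M/M libraries lay on one side of the 3 I/M libraries, which their choice by this same test made likely. Kcna6 and Kcnc1 met their CPM minimums through M/M lenses alone, and Kcnj2 mainly through I/M lenses. No group has the 4 or more samples that a check for single outlying libraries needs.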

How the results depend on the processing

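Of 1375 alternative values for 77 gene results, 1340 kept direction and side of the threshold, 21 newly passed it, 7 no longer passed it and 7 changed direction. Those 7 all came from scaling by library totals alone, which shifts the median of all genes: against WT, Kcnab1 (0.058), Kcnj6 (0.016) and Kcnma1 (0.022) in M/M and Kcnh2 (0.033) in I/M, and in M/M against I/M, Kcne1 (0.052), Kcnh1 (0.043) and Kcnk3 (0.042). That scaling also gave 2 members lower in I/M at 1 CPM, and 8 higher and 1 lower in M/M against I/M. The fit to only the 2 genotypes compared gave 2 lower in I/M at 1 CPM. Without any fold threshold, lower counts at 5 CPM were 5 in M/M, 5 in I/M and 6 in M/M against I/M, and higher counts 5 in M/M against I/M and 2 in KO. At 1 CPM that rule gave 10 lower in M/M, 17 higher and 10 lower in I/M, 10 higher and 10 lower in M/M against I/M and 2 higher in KO. Without a minimum the counts were 32 higher and 5 lower in M/M, 17 and 6 in I/M, 20 and 4 in M/M against I/M and 2 lower in KO. These counts rest on the adjusted p of the fit with no minimum, which are not comparable with those of the main fit. The 1 CPM and 5 CPM minimums are each other's alternative: 14 against 6 higher and 2 against 0 lower in M/M, 10 against 5 and 4 against 0 in I/M, and 5 against 2 and 2 against 0 in M/M against I/M. Leaving out 1 library at a time gave 0 to 2 higher in M/M against I/M at 5 CPM and 3 to 6 at 1 CPM, the lowest without any one of the 3 M/M libraries, when genes above a minimum in M/M alone no longer met it in 3 libraries. It gave 2 to 4 lower in I/M and 0 to 1 higher in KO at 1 CPM, both extremes without WT replicate 2. Otherwise these ranges were 4 to 6 and 11 to 16 higher in M/M and 4 to 5 and 10 to 13 higher in I/M, at 5 and 1 CPM. Replicate numbers do not pair samples, and the fit with a replicate block gave 6 higher in M/M and 5 in I/M at 5 CPM and changed none of the 77 gene results. DESeq2 and TMM without crystallins changed none either. Members under 1 CPM are limited by depth, since a floor of 3 counts per WT library is 0.0605 CPM.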
